A study of Mus musculus with 6 samples.

Results

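The cells described here are the 609 cells of newborn mouse lung that the authors placed in the class Classical Monocytes 2. They were chosen by that name in the deposited annotation of the 2 libraries from postnatal day 1, with no value of any gene used to choose them here. The female library held 274 of them and the male library 335, out of 22821 day 1 cells with a class, of which 8337 belonged to immune classes. The whole series held 55882 cells with a class. The 4 libraries from day 21 held 0 cells of this name, and of the 62 cell barcodes found in both day 1 libraries 1 was a cell of the class in the female library and 0 in the male library. Both day 1 libraries came from lungs of wild-type C57BL/6N mice kept in room air (21% oxygen). Each was made from the pooled lungs of 3 mice of 1 sex, so a library is 1 sample, the spread between mice of a pool is not known, and a difference between the sexes cannot be told apart from a difference between libraries. The lungs were perfused, digested with enzymes, treated to lyse red cells and sorted for live cells before capture by 10x Genomics 3' chemistry. The series as a whole follows recovery from neonatal hyperoxia (95% oxygen from day 1 to day 5) in female and male mice at day 21, and no cell described here had been exposed to hyperoxia.

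Classical monocytes are made in the bone marrow, and before birth also in the fetal liver, from progenitors some of which also give rise to neutrophils. They carry Ly6C and the chemokine receptor CCR2, which draws them out of the marrow, and they enter tissues where they can become macrophages or dendritic cells. Nonclassical monocytes, which arise largely from classical ones, lose Ly6C and CCR2, gain CX3CR1 and patrol the walls of blood vessels. In the newborn lung, monocytes of fetal origin give rise to the first alveolar macrophages.

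Classical Monocytes 2 made up 6.56% of the immune cells of the female library (exact binomial 95% interval 5.82 to 7.35) and 8.06% of those of the male library (7.25 to 8.93). A second class of the same name, Classical Monocytes 1, held 560 and 447 cells, or 13.4% and 10.8% of immune cells. All intervals cover counting error only. The median cell of Classical Monocytes 2 held 11867 UMIs and 3097 genes in the female library and 10571 UMIs and 2841 genes in the male library, so depth was close to that of Classical Monocytes 1 (10296 and 9794 UMIs). Scrublet, a doublet caller, marked 44 of the class (16.1%) in the female library but 1 (0.299%) in the male library. Of all cells with a class it marked 8.19% in the female and 0.177% in the male library, so it made few calls of any kind in the latter. It marked 43 (7.68%) and 2 (0.447%) of Classical Monocytes 1. Some cells of the class also held transcripts of mature neutrophils. With at least 3 UMIs of Retnlg or any UMI of Ly6g, these were 35 of the 274 female cells (12.8%) and 21 of the 335 male cells (6.27%). Their median depth was higher, at 15065 and 13959 UMIs against 11492 and 10420 in the other cells. Scrublet marked 25 of the 35 and 0 of the 21, with median scores of 0.234 and 0.0926 against 0.00927 and 0.00862. The comparison with Classical Monocytes 1 is given with and without these cells, by its counts and for the lists and named genes that moved most.

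The label was checked against markers of classical monocytes, with levels given as CPM, the UMIs of a gene per 1000000 UMIs of all genes, summed over the cells of a class in 1 library. Ly6c2, which encodes the Ly6C surface antigen (chr15:75108158-75111970 in GRCm38, minus strand), stood at 1143 CPM in the female library (exact Poisson 95% interval 1108 to 1179) and 1634 in the male library (1594 to 1675). Classical Monocytes 1 held 836 and 1434 CPM of it, Neutrophils Ngp+ 529 and 660, NK Cells 300 and 241, Transient Macrophages 30.9 and 45.2, and B Cells 60.8 and 47.9. Reads of Ly6c2 and its near-identical neighbour Ly6c1 may be split by the counting, so its level is uncertain. Ccr2, the receptor for the chemokine CCL2 (chr9:124101950-124113557, plus strand), stood at 882 CPM (852 to 914) and 1051 CPM (1019 to 1084), beside 784 and 973 in Classical Monocytes 1 and 441 and 462 in Transient Macrophages. The small class Interstitial Macrophages 2 held more Ccr2, at 1087 and 1377 CPM. Both markers of the label were therefore present at high levels in both libraries, and Neutrophils, at 8.72 and 5.72 CPM, nearly lacked Ccr2.

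Shares of cells were compared after every cell was thinned to 2000 UMIs, which left out 0 cells of the class. Ccr2 had a UMI in 74.1% (exact binomial 95% interval 68.5 to 79.2) of female and 82.4% (77.9 to 86.3) of male cells, and unthinned in 94.9% and 97.6%. In Neutrophils the thinned shares were 0.721% and 0.741%. In B Cells, which have median depths of 10092 and 11687.5 UMIs, they were 18.0% and 21.4%, with Ccr2 at 208 and 205 CPM. Ly6c2 had a UMI in 71.9% (66.2 to 77.1) and 85.4% (81.1 to 89.0) of thinned cells of the class, and unthinned in 91.6% and 95.8%, against 4.51% and 7.14% of thinned B Cells. Ly6c2 and Ccr2 thus marked most cells of the class at 2000 UMIs.

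Of the 8 genes on the list of classical monocyte markers, all 8 could be compared with Classical Monocytes 1, and 1 of them was at least 2-fold higher in both libraries. The median log2 ratio of the list was 0.63, beside -0.07 over all 8350 genes tested. Vcan, a matrix proteoglycan that marks classical monocytes, stood at 710 CPM in the female and 853 in the male library against 339 and 482 in Classical Monocytes 1, a log2 ratio of 1.07 and 0.82. F13a1, the A chain of clotting factor XIII, stood at 619 and 710 CPM against 340 and 460, a log2 ratio of 0.86 and 0.63. Both genes lay above Classical Monocytes 1 in both libraries without reaching 2-fold in both. Hp, which encodes haptoglobin, stood at 1171 and 1517 CPM against 827 and 1044 (log2 ratio 0.50 and 0.54). The neutrophil classes held more Hp, with 2765 and 3168 CPM in Neutrophils and 1395 and 1687 in Neutrophils Ngp+. Plac8, a small protein of myeloid and other cells, lay the other way, at 2703 and 3918 CPM against 4577 and 5885, with log2 ratios of -0.76 and -0.59. Summed, the 8 genes stood at 9022 and 11805 CPM in the class, 8004 and 10693 in Classical Monocytes 1, 3762 and 4302 in Neutrophils, 972 and 953 in Transient Macrophages and 1137 and 1342 in B Cells.

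**Figure D1:**
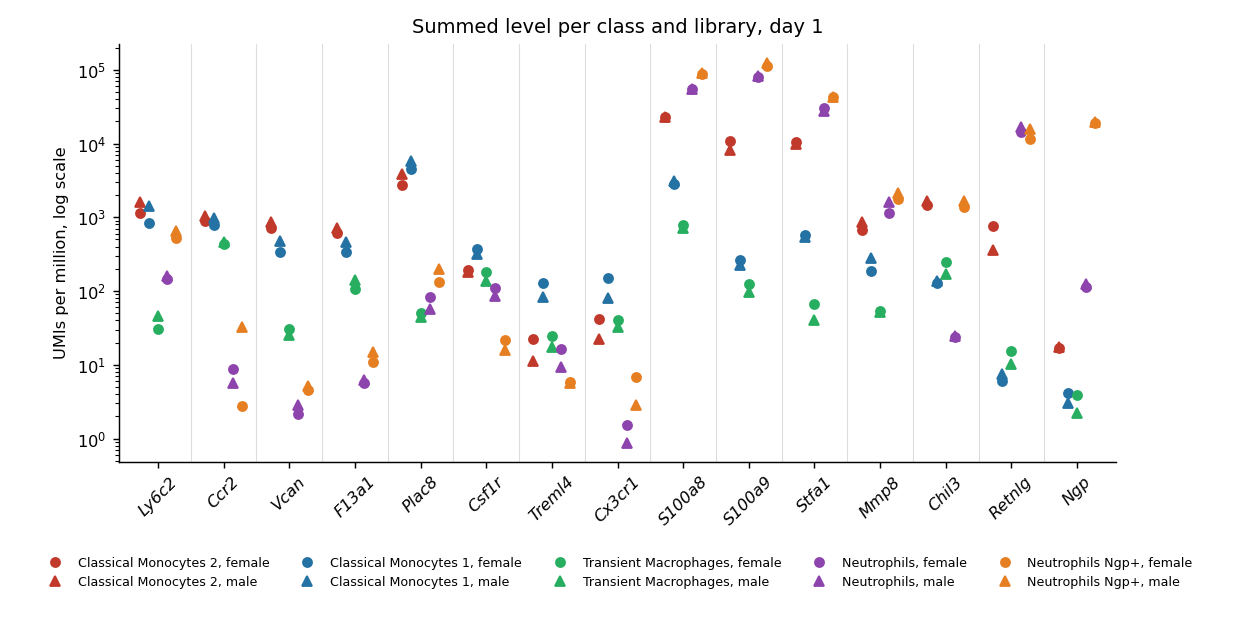
Levels of 15 genes in CPM, on a logarithmic axis, in Classical Monocytes 2 and the 4 immune classes that share its genes. Circles are the female library and triangles the male library. The genes of classical monocytes (Ly6c2 to Plac8) put the class beside Classical Monocytes 1, while S100a8, S100a9, Stfa1 and Mmp8 put it between that class and the neutrophil classes.

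Classical Monocytes 2 was then compared with each of the 8 other immune classes that had at least 50 cells in both libraries. A gene was counted as called when it had at least 50 UMIs over both classes in each library and differed at least 2-fold in the same direction in both. No p-value is given, because the authors' clusters were made from these genes and each sex had 1 library. The closest class was Classical Monocytes 1, with a Spearman correlation of CPM across genes of 0.953 in the female and 0.955 in the male library. Of 8350 genes tested, 53 were higher in Classical Monocytes 2 (0.635% of genes tested) and 124 lower (1.49%). Next came Transient Macrophages with correlations of 0.898 and 0.872, with 441 of 10325 genes higher (4.27%) and 1076 lower (10.4%). The correlations were 0.774 and 0.722 with Interstitial Macrophages 1 (385 of 7276 genes higher, 5.29%, and 668 lower, 9.18%) and 0.735 and 0.692 with Alveolar Macrophages (770 of 7674 higher, 10%, and 762 lower, 9.93%). They were 0.716 and 0.705 with B Cells (675 of 7298 higher, 9.25%, and 530 lower, 7.26%) and 0.596 and 0.569 with NK Cells (1214 of 7351 higher, 16.5%, and 702 lower, 9.55%). The neutrophil classes differed in more genes. The correlations were 0.692 and 0.638 with Neutrophils, with 2410 of 7608 genes higher (31.7%) and 712 lower (9.36%). They were 0.705 and 0.697 with Neutrophils Ngp+, the class whose cells carry granule genes of immature neutrophils, with 2064 of 7704 genes higher (26.8%) and 595 lower (7.72%). Genes are not independent, and all classes share their library.

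**Figure D2:**
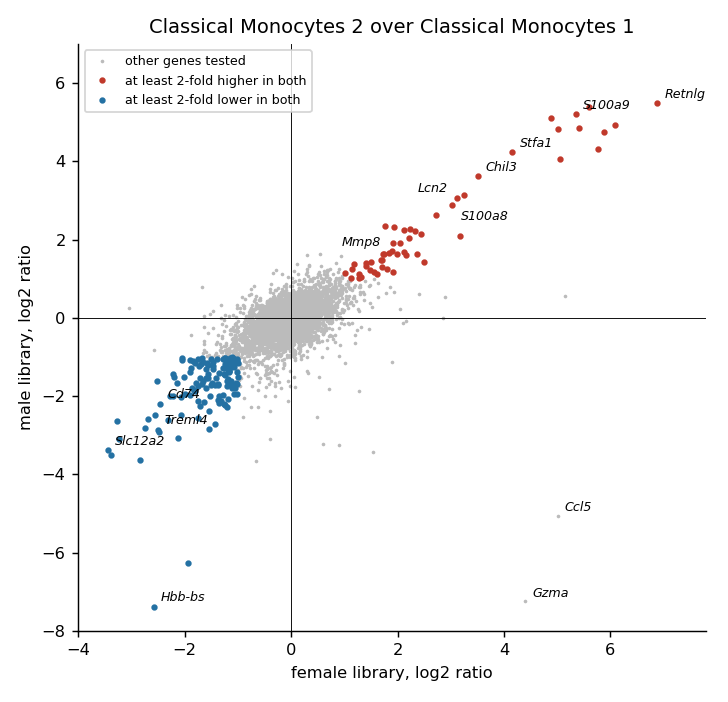
Log2 ratio of Classical Monocytes 2 over Classical Monocytes 1 in the female library (horizontal) and the male library (vertical), 1 point per gene tested. Red points are the 53 genes at least 2-fold higher in both libraries and blue points the 124 at least 2-fold lower. Most genes lie near 0 in both libraries, and Hbb-bs, whose UMIs were mostly held by 1 cell of Classical Monocytes 1 in each library, lies apart.

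The genes that set Classical Monocytes 2 apart from Classical Monocytes 1 were led by genes known from neutrophils. S100a8, which encodes 1 chain of calprotectin, a calcium- and zinc-binding protein of neutrophils and monocytes (chr3:90668978-90670035 in GRCm38, plus strand), stood at 23017 CPM in the female library (95% interval 22858 to 23176) and 22648 CPM in the male library (22498 to 22799). Classical Monocytes 1 held 2841 and 3080 CPM, Neutrophils 55510 and 55727 and Neutrophils Ngp+ 87300 and 89879. The log2 ratio over Classical Monocytes 1 was 3.02 in the female and 2.88 in the male library. S100a9, the other chain of calprotectin (chr3:90692632-90695721, minus strand), stood at 10766 CPM (10658 to 10875) and 8255 CPM (8165 to 8347) against 263 and 223, a log2 ratio of 5.35 and 5.21. Neutrophils held 79500 and 83040 CPM of S100a9. Both chains therefore lay between the other monocyte class and the neutrophils in both libraries, S100a8 closer to the neutrophils than S100a9. B Cells, which should lack both, held 348 and 978 CPM of S100a8 and 312 and 625 CPM of S100a9.

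Stfa1, one of the stefin A genes, which encode inhibitors of cysteine proteases (chr16:36276951-36285373, plus strand), stood at 10383 CPM (10277 to 10490) and 9976 CPM (9877 to 10076). Classical Monocytes 1 held 582 and 533 CPM and Neutrophils 30738 and 28000, and the log2 ratios over Classical Monocytes 1 were 4.16 and 4.23. Mmp8, the collagenase of neutrophil granules (chr9:7558456-7568485, plus strand), stood at 668 CPM (641 to 696) and 874 CPM (844 to 904) against 186 and 277, with log2 ratios of 1.84 and 1.66. It stood at 1135 and 1615 CPM in Neutrophils. Mmp8 was the gene of this group nearest to its neutrophil level. As a share of the excess of Neutrophils over Classical Monocytes 1, the excess of Classical Monocytes 2 was 50.8% and 44.6% for Mmp8, 38.3% and 37.2% for S100a8 and 32.5% and 34.4% for Stfa1. It was 13.3% and 9.7% for S100a9 and 5.31% and 2.08% for Retnlg. Against the excess of Neutrophils Ngp+ it was 30.4% and 31.8% for Mmp8, 23.9% and 22.5% for S100a8 and 23% and 22.4% for Stfa1. For S100a9 it was then 9.25% and 6.5% and for Retnlg 6.62% and 2.22%. S100a8 and Stfa1 thus had similar shares against either neutrophil class, while S100a9 and Retnlg had smaller ones.

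The start regions of 5 genes are shown because they stand for the genes that were higher with and without the cells with Retnlg or Ly6g, and Chil3 is described after the neutrophil lists. They are the 250 bases before the start of each gene in RefSeq for GRCm38.p6, read 5′ to 3′ on the strand of the gene. They lie at chr3:90668821-90669070 (S100a8), chr3:90695722-90695971 (S100a9), chr16:36276898-36277147 (Stfa1), chr9:7558179-7558428 (Mmp8) and chr3:106167565-106167814 (Chil3). Capitals mark TTGCNNAA, searched on both strands, a short form of the site of the C/EBP factors, which act in the making of monocytes and neutrophils.
S100a8: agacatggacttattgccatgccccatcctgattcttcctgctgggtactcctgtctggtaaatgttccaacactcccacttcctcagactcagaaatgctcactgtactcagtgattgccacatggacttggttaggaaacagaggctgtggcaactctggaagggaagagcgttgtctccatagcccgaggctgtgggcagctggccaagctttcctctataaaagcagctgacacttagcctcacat
S100a9: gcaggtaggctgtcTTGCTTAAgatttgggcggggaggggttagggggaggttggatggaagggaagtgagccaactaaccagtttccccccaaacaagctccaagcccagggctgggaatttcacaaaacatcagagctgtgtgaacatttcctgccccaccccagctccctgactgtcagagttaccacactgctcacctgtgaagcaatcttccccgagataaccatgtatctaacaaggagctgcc
Stfa1: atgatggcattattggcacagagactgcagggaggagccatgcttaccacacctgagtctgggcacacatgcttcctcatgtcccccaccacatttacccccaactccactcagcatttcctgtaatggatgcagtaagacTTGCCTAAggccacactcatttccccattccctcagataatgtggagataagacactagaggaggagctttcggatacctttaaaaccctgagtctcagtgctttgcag
Mmp8: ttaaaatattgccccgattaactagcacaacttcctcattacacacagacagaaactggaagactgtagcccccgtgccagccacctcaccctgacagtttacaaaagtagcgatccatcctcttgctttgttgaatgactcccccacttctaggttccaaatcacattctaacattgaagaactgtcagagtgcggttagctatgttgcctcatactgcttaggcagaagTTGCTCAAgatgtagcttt
Chil3: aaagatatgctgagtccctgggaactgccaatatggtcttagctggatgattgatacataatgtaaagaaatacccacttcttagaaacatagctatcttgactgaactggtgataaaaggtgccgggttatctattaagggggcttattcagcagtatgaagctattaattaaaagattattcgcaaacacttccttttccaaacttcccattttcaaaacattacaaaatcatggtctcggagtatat
The match begins 236 bases before the RefSeq start of S100a9, 109 before that of Stfa1 and 19 before that of Mmp8, and S100a8 and Chil3 have none in this window. The gene coordinates given above, from GENCODE, begin further upstream for S100a8 and Stfa1. Part of their windows, and the match of Stfa1, therefore lie inside those coordinates. The window of Vcan, the only other one searched singly, has none either. Of the 53 higher genes 43 had a start region in RefSeq, and 11 of these (25.6%) held a match. Of the genes higher without the cells with Retnlg or Ly6g 28 had one, and 8 (28.6%) held a match. Of the lower genes 100 had one, and 9 (9.0%) held a match. Over all 27025 genes with a start region the share was 10.8%. These are all genes with such a region and not only those tested. The higher genes include several near-identical genes of the stefin A cluster, whose start regions may not be separate cases. GAGGAA, a short form of the site of PU.1, searched the same way, was present in 39.5% of the higher genes, 14 of the 28 higher without the cells with Retnlg or Ly6g, 37.0% of the lower genes and 25.9% of all. A match is a description of letters, and binding was not measured.

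The list of neutrophil markers held 10 genes, of which 7 could be tested and 6 were at least 2-fold higher than in Classical Monocytes 1 (S100a8, S100a9, Retnlg, Cxcr2, Mmp8 and Ngp), with a median log2 ratio of 2.12. Cxcr2, the receptor that neutrophils use to follow CXC chemokines, stood at 168 and 140 CPM against 32.1 and 44.7 in Classical Monocytes 1 and 1242 and 1266 in Neutrophils. Csf3r, the receptor for the neutrophil growth factor G-CSF, did not reach 2-fold, at 158 and 117 CPM against 96.4 and 97.4. Ngp, Camp and Ly6g stood far below the neutrophil classes where they are highest. Ngp, a granule protein of immature neutrophils, stood at 17.1 and 17.2 CPM beside 19171 and 19843 in Neutrophils Ngp+. Camp, the cathelicidin of neutrophil granules, stood at 27 and 9.36 CPM beside 14338 and 14632 there, an excess over Classical Monocytes 1 that was 48.9% and 24.0% of that of Neutrophils. Ly6g, the surface antigen that defines mouse neutrophils, had 25 and 16 UMIs in the class, or 7.11 and 4.16 CPM, against 104 and 119 CPM in Neutrophils. Summed, the 10 neutrophil markers stood at 35601 and 32425 CPM in the class, 3436 and 3738 in Classical Monocytes 1 and 153276 and 160021 in Neutrophils. Most of each sum was S100a8 and S100a9, so it says little about the other markers.

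Granule and antimicrobial genes as a list had 19 tested members, of which 9 were higher and 0 lower, with a median log2 ratio of 1.71. Among the higher ones S100a8, S100a9, Mmp8 and Ngp are also on the neutrophil list, and Chil3 is also on the classical monocyte list. Lcn2, an iron-withholding protein of neutrophil granules, stood at 772 and 923 CPM against 88.3 and 110, a log2 ratio of 3.12 and 3.07. Wfdc21 stood at 503 and 328 CPM against 52.4 and 37 (log2 ratio 3.25 and 3.14). Slpi, an inhibitor of serine proteases, stood at 299 and 197 CPM against 52.7 and 72.7 (2.49 and 1.43). Lyz2, the lysozyme that nearly all myeloid cells make, was not among the genes called, at 12307 and 14752 CPM against 11283 and 11997. The members that differed thus did not include the lysozyme common to both monocyte classes.

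Genes of the stefin A cluster, a run of closely related genes on chromosome 16, were higher too. The stefin list also held Cstb and Cst3, which encode other inhibitors of the family and lie outside the cluster. Of its 6 tested members 4 were higher (Stfa1, Stfa2, Stfa2l1 and Stfa3) and 0 lower, with a median log2 ratio of 3.24. Summed, these 4 genes stood at 13660 and 12796 CPM against 886 and 907 in Classical Monocytes 1. Stfa2l1 stood at 1414 and 1148 CPM against 47.7 and 32.7, a log2 ratio of 4.88 and 5.11. Stfa3 stood at 1368 and 1479 CPM against 249 and 335 (2.45 and 2.14). Stfa2 stood at 495 and 192 CPM against 6.93 and 5.92 (6.08 and 4.92). The related genes Cstdc4 (2323 and 1780 CPM against 71.4 and 62.7), Cstdc5 (1155 and 414 against 19.2 and 14.9) and Csta3 (129 and 52.8 against 2.26 and 0.817) were among the 12 genes with the largest ratios. The members are near-identical, so how the counting divides reads among them is uncertain and the single values are too.

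Chil3, which encodes the chitinase-like lectin Ym1 (chr3:106147554-106167564, minus strand), was the marker of the classical monocyte list that rose. It stood at 1472 CPM in the female library (95% interval 1432 to 1513) and 1671 CPM in the male library (1630 to 1712), against 129 and 136 in Classical Monocytes 1, a log2 ratio of 3.51 and 3.62. Neutrophils held 24 and 24.2 CPM, Neutrophils Ngp+ 1367 and 1671, Alveolar Macrophages 269 and 155, Transient Macrophages 248 and 171, and B Cells 18.4 and 0 (0 UMIs in the male B Cells). Chil3 was therefore as high in this class as in Neutrophils Ngp+ and low in Neutrophils, which differs from the order of S100a8, S100a9 and Stfa1. Reads shared with the paralogue Chil4 may affect its count.

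The pattern across cells differed between these genes. S100a8 was a feature of nearly every cell: its share of a cell's UMIs was 0.591% at the 10th percentile, 2% at the median and 4.32% at the 90th percentile of female cells, and 0.55%, 1.89% and 4.46% of male cells. S100a9 was spread wider, with 0.00189%, 0.471% and 2.50% in female cells and 0, 0.127% and 2.37% in male cells. Stfa1 was as even as S100a8, with 0.348%, 0.905% and 1.85% in female and 0.334%, 0.85% and 1.84% in male cells. For Chil3 the median cell held none, and the 90th percentile was 0.531% and 0.623%. A Chil3 UMI was present in 131 female cells (47.8%) and 167 male cells (49.9%), and the 102 and 127 cells with at least 10 UMIs held 98.2% and 97.4% of its UMIs. Chil3 was thus carried by a part of the class, at high counts per cell.

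**Figure D3:**
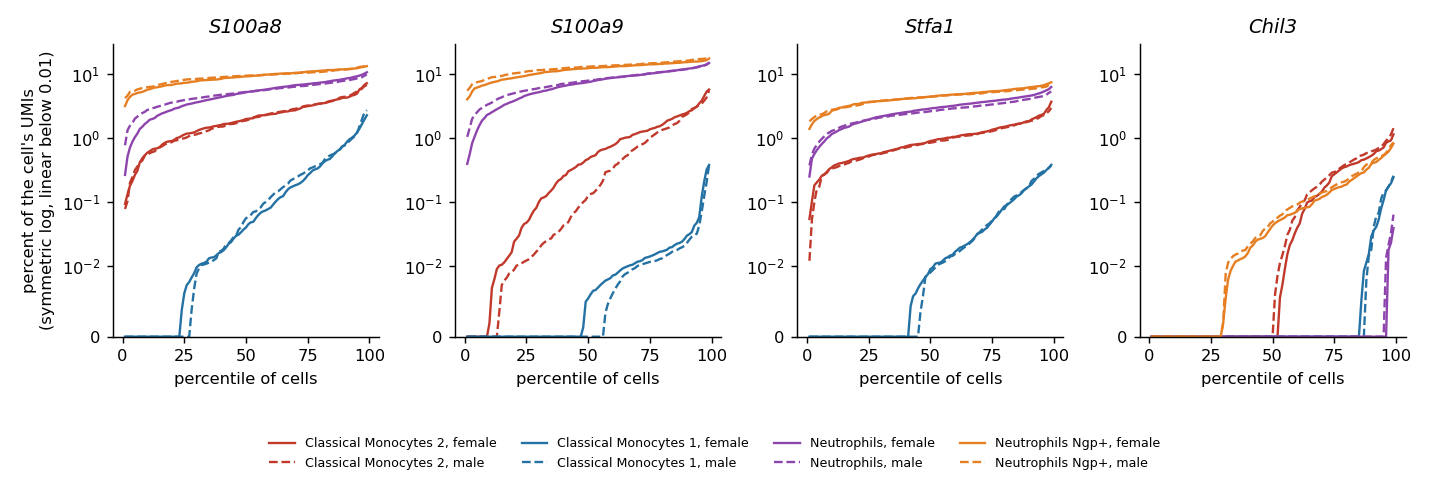
Percent of a cell's UMIs from S100a8, S100a9, Stfa1 and Chil3 (vertical, logarithmic above 0.01 and linear below), against the percentile of cells ordered by that value (horizontal). Solid lines are the female library and dashed lines the male library. In Classical Monocytes 2, S100a8 and Stfa1 run above Classical Monocytes 1 over the whole range of cells, and Chil3 rises from 0 only near the middle of the class.

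After thinning to 2000 UMIs, S100a8 had a UMI in 100% and 99.1% of cells of the class, against 54.4% and 57.0% of Classical Monocytes 1 and 10.5% and 8.93% of B Cells. Stfa1 had one in 98.5% and 98.2%, against 32.6% and 33.3% of Classical Monocytes 1 and 8.27% and 8.04% of B Cells. S100a9 had one in 77.4% (72.0 to 82.2) and 66.9% (61.5 to 71.9), against 19.7% and 14.1% of Classical Monocytes 1 and 13.5% and 13.4% of B Cells. The S100a9 shares of Classical Monocytes 1 were thus near those of B Cells. Chil3 had a UMI in 38.7% (32.9 to 44.7) and 42.4% (37.0 to 47.9), against 9.30% and 9.17% of Classical Monocytes 1, 1.98% and 2.80% of Neutrophils and 2.26% and 0 of B Cells, where 0 of 112 cells allow up to 2.68%. Unthinned, the shares in the class were 100% and 99.7% for S100a8, 99.3% and 99.4% for Stfa1, 89.8% and 86.0% for S100a9 and 47.8% and 49.9% for Chil3.

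Both monocyte classes met at their edges. S100a8 and S100a9 together made up 2.63% of the UMIs of the median female cell of the class and 2.28% of the median male cell. The median was 0.0485% and 0.0597% in Classical Monocytes 1, and 12.9% and 13.2% in Neutrophils. The 10th percentile of Classical Monocytes 2 was 0.667% and 0.582%, and 72 of 560 female (12.9%) and 65 of 447 male (14.5%) cells of Classical Monocytes 1 lay above that. At the other end, 60 female (21.9%) and 33 male (9.85%) cells of Classical Monocytes 2 lay above the 10th percentile of Neutrophils (4.53% and 6.53%). Without the cells with Retnlg or Ly6g these were 47 of 239 (19.7%) and 27 of 314 (8.6%). The class thus overlapped with Classical Monocytes 1 and with Neutrophils in this measure.

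The UMIs of some neutrophil genes, among them Retnlg, Mmp9, Ngp and Ly6g, were held by few cells. The 28 female and 34 male cells with the most held 97.8% and 99.1% of the Retnlg UMIs of the class. As many cells with the most S100a8 held 26% and 27.5% of its UMIs, and those with the most Stfa1 27.1% and 28%. Cxcr2 was spread wider than Retnlg, with a UMI in 59.1% and 58.8% of cells and 45.2% and 41.1% of its UMIs in as many cells, as was Mmp8, with a UMI in 92% and 95.8%. Retnlg, which encodes a resistin-like protein secreted by neutrophils, stood at 768 and 359 CPM with all cells, against 6.12 and 7.56 in Classical Monocytes 1, a log2 ratio of 6.88 and 5.49 that was the highest of the genes compared. Without the 35 and 21 cells with Retnlg or Ly6g it stood at 10.4 and 9.32 CPM, a log2 ratio of 0.73 and 0.29, so that its call ended. These cells were left out on Retnlg itself, which makes that loss part of the choice. The same step took Mmp9, a gelatinase of neutrophil granules, from 78.5 and 30.4 CPM to 15.2 and 7.06. Its log2 ratios were then still 3.04 and 2.79, and it lost its call because it fell under the minimum of 50 UMIs. Ngp went from 17.1 and 17.2 CPM to 3.03 and 1.69, with log2 ratios of -0.42 and -0.71, and fell under that minimum too.

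Other genes stayed at least 2-fold higher, and S100a8, Stfa1, Mmp8 and Chil3 also kept their level. Without those cells S100a8 stood at 23685 and 22183 CPM, with log2 ratios over Classical Monocytes 1 of 3.06 and 2.85. Stfa1 stood at 10369 and 9778 CPM (4.15 and 4.20), Mmp8 at 658 and 870 (1.82 and 1.65) and Chil3 at 1672 and 1711 (3.68 and 3.65). S100a9 stood at 8478 and 6852 CPM (5.00 and 4.94). Among the named genes still called higher the level of Stfa2 moved most, to 72.4 and 30.8 CPM (log2 ratio 3.30 and 2.29), with Cstdc5 at 272 and 121 (3.80 and 2.98) and Csta3 at 40.1 and 18.4 (3.91 and 3.87). Of the list of neutrophil markers 4 of 6 tested genes were then higher, of granule and antimicrobial genes 7 of 17 and of stefins 4 of 6. In all, 36 of 8238 genes were higher (0.437%) and 150 lower (1.82%), and 33 of the 36 were among the 53 found with all cells, which is 62.3% of the 53 and 91.7% of the 36. The high S100a8, Stfa1, Mmp8 and Chil3 were therefore as large without the cells that held at least 3 Retnlg UMIs or any Ly6g UMI. A Retnlg UMI was present in 59 female and 46 male cells, so some cells with fewer Retnlg UMIs stayed in.

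**Figure D4:**
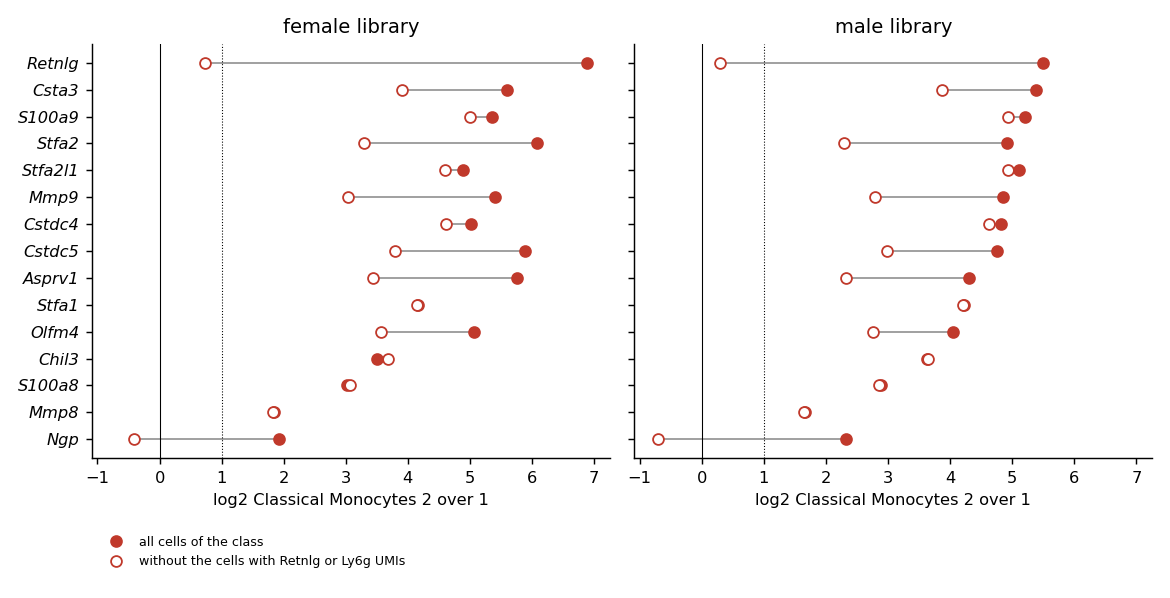
Log2 ratio of Classical Monocytes 2 over Classical Monocytes 1 for 15 genes, with all cells and without the cells holding at least 3 Retnlg UMIs or any Ly6g UMI, for each library. The dotted line marks a 2-fold difference. Retnlg and Ngp fall below the line without those cells, while S100a8, S100a9, Stfa1, Mmp8 and Chil3 stay above it.

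Of the 53 genes higher in Classical Monocytes 2 than in Classical Monocytes 1, 44 (83%) were also at least 2-fold higher in Neutrophils than in Classical Monocytes 1, as were 563 of all 8350 genes tested (6.74%), and 5 (9.43%) were lower in Neutrophils (3058 of all genes, 36.6%). Likewise 44 (83%) were higher in Neutrophils Ngp+ (394 of all genes, 4.72%), and 1 (1.89%) was lower there (2584 of all genes, 30.9%). In Transient Macrophages 9 (17%) were higher (455 of all genes, 5.45%) and 17 (32.1%) lower (501 of all genes, 6%). Of the 36 genes higher without the cells with Retnlg or Ly6g, 28 (77.8%) were higher in Neutrophils, 29 (80.6%) in Neutrophils Ngp+ and 5 (13.9%) in Transient Macrophages. Of all 8238 genes then tested these were 541 (6.57%), 374 (4.54%) and 444 (5.39%). In Transient Macrophages 15 of the 36 (41.7%) were lower (495 of the 8238 genes, 6.01%). These counts set 3 classes against the same Classical Monocytes 1, so they are given side by side with no measure of overlap beyond that.

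Genes of nonclassical monocytes lay on the other side. Of the 8 markers on that list, 6 were at least 2-fold lower than in Classical Monocytes 1 and 0 higher, with a median log2 ratio of -2.26. Treml4, a receptor of the TREM family on patrolling monocytes, stood at 22.2 and 11.2 CPM against 129 and 84.3, a log2 ratio of -2.51 and -2.86. Cx3cr1, the fractalkine receptor, stood at 41.3 and 22.1 CPM against 148 and 80.7 (-1.83 and -1.85), beside 964 and 793 in Interstitial Macrophages 1. Ace, the angiotensin-converting enzyme, stood at 13.9 and 12 CPM against 138 and 76.4 (-3.27 and -2.63). Cd300e stood at 1.71 and 0.52 CPM against 21.8 and 10.6 (-3.39 and -3.50), Eno3 at 9.96 and 2.08 against 74.6 and 31 (-2.85 and -3.63), and Spn, which encodes CD43, at 23 and 19.2 against 74.5 and 39.6 (-1.67 and -1.02). The list's other tested members did not pass, namely Nr4a1, the nuclear receptor that nonclassical monocytes depend on, at 155 and 100 CPM against 279 and 141, and Pglyrp1, which neutrophils also carry, at 284 and 255 against 197 and 138. The summed list stood at 551 and 423 CPM in the class against 1062 and 602. Of the 8, 6 were lower too without the cells with Retnlg or Ly6g. The authors' class of Nonclassical Monocytes, with 32 and 11 cells too small to compare, held 441 and 333 CPM of Treml4.

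After thinning, Treml4 had a UMI in 2.55% and 2.09% of cells of the class and in 22.5% and 16.3% of Classical Monocytes 1, and Cx3cr1 in 5.11% and 4.48% against 20.9% and 16.6%. Csf1r, the receptor for macrophage colony-stimulating factor, stood at 192 and 180 CPM against 369 and 315 in Classical Monocytes 1, with log2 ratios of -0.94 and -0.80 that did not reach 2-fold, and had a UMI in 33.6% and 33.4% of thinned cells against 52.1% and 46.8%. At 2000 UMIs most cells of either monocyte class had no UMI of Treml4 or Cx3cr1, and the share with one was lower in Classical Monocytes 2.

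Apart from these, the 12 genes lowest against Classical Monocytes 1, ranked with haemoglobin genes left out, included Slc12a2, a sodium, potassium and chloride carrier. It stood at 13.9 and 8.06 CPM against 155 and 89 (log2 ratio -3.44 and -3.39). Dusp2, a phosphatase of MAP kinases, stood at 6.54 and 4.42 CPM against 64.8 and 41.5 (-3.23 and -3.10). Adgre4, an adhesion receptor related to F4/80, stood at 25 and 14.8 CPM against 170 and 107 (-2.75 and -2.81). Hes1, a target of Notch signalling, stood at 9.67 and 4.68 CPM against 56.4 and 38.8 (-2.49 and -2.93). Ccnd2, which encodes cyclin D2, stood at 8.82 and 3.38 CPM against 39.8 and 31.7 (-2.12 and -3.06), and Lair1, an inhibitory receptor for collagen, at 16.8 and 13.3 against 85.1 and 83.7 (-2.31 and -2.62). Tmem37 and Tmem51 had log2 ratios of -2.70 and -2.59 and of -2.08 and -2.02. The remaining gene of the 12 apart from nonclassical markers was Cd74, which is on the lists of dendritic cells and of class II genes.

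The few dendritic cell markers that could be tested were lower, and of the tested class II genes only Cd74 was. Of the list of dendritic cell markers 3 could be tested and 3 were lower (Batf3, Itgax and Cd74), with a median log2 ratio of -1.95. Cd74, the invariant chain of class II of the major histocompatibility complex, stood at 16.8 and 24.7 CPM against 94.9 and 115 in Classical Monocytes 1, a log2 ratio of -2.47 and -2.20. Batf3, a factor needed for cross-presenting dendritic cells, stood at 13.9 and 8.84 CPM against 41.3 and 47.6 (-1.54 and -2.37). H2-Ab1, a chain of the class II molecule itself, had 3 and 4 UMIs in the class, or 0.854 and 1.04 CPM, beside 3169 and 3703 CPM in B Cells. Xcr1, Cd209a and Ccr7 were at 0 in the class in both libraries. The 3 tested genes of the class II list had 1 lower, which was Cd74 again.

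Macrophage genes gave a mixed picture that turned on few cells. Of 8 tested markers of interstitial macrophages, 2 were higher (Mrc1 and Pf4) and 2 lower (C1qb and C1qc), with a median log2 ratio of -0.25. Mrc1, the mannose receptor, stood at 26.7 and 12 CPM against 2.58 and 2.45, and Pf4, a chemokine, at 29 and 18.7 against 6.77 and 4.7. Neither was called without the cells with Retnlg or Ly6g. Mrc1 then stood at 7.75 and 7.63 CPM, with log2 ratios of 1.44 and 1.47, and fell under the minimum of 50 UMIs, and Pf4 had log2 ratios of 1.79 and -0.78. C1qb, a chain of complement C1q, stood at 25.9 and 24.7 CPM against 88 and 148, and at 6.74 and 2.54 without those cells, when C1qa, C1qb and C1qc were all lower. Summed, the interstitial macrophage list stood at 238 and 223 CPM in the class beside 16966 and 15654 in Interstitial Macrophages 1. Trem2, a lipid receptor of macrophages, was lower with all cells, at 33 and 26.3 CPM against 79.1 and 73.1. Apoe, which carries lipids out of macrophages, stood at 2127 and 2581 CPM against 4016 and 4446, with log2 ratios of -0.92 and -0.78 that did not reach 2-fold.

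The lists of function that separated the monocyte classes were few. Among 15 tested receptors for chemokines and growth factors 1 was higher (Cxcr2) and 1 lower (Cx3cr1), with a median of 0.14. Ccr1, a receptor for inflammatory chemokines, stood at 324 and 321 CPM against 202 and 266, and Ifngr1, a chain of the interferon-gamma receptor, at 495 and 512 against 666 and 602. Of 10 tested chemokines and cytokines 1 was higher, Cxcl2, at 176 and 51 CPM against 79.8 and 21. Without the cells with Retnlg or Ly6g it stood at 81.8 and 35 CPM, with log2 ratios of 0.03 and 0.72, and was not called. Il1b was not called, at 193 and 100 CPM against 196 and 200, beside 2426 and 1896 in Neutrophils.

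Transcription factors of the monocyte lineage mostly did not differ by 2-fold: of 16 tested, 1 was higher and 1 lower, with a median of -0.13. Cebpe, a factor of granulocyte maturation, was the one higher, at 45.2 and 39.3 CPM against 19.7 and 14.9, a log2 ratio of 1.19 and 1.37, beside 139 and 107 in Neutrophils and 444 and 499 in Neutrophils Ngp+. Maf, a factor of macrophages, was lower, at 46.1 and 56.7 CPM against 110 and 118 (-1.24 and -1.06). Spi1, which encodes PU.1, stood at 705 and 775 CPM against 856 and 818, and Cebpb at 1548 and 1470 against 1985 and 1686. Irf8, which directs progenitors to monocytes and is lost in neutrophils, stood at 153 and 178 CPM against 160 and 173, beside 4.36 and 0.88 in Neutrophils. In Irf8 the class thus lay with the other monocytes.

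Of 19 tested receptors for patterns and for phagocytosis, 1 was higher (Mrc1) and 3 lower, with a median of -0.19. The lower ones were Fcgr4, an activating receptor for immunoglobulin G typical of nonclassical monocytes, at 69.1 and 82.5 CPM against 192 and 196, Fcgr2b, the inhibitory one, at 66.3 and 43.7 against 133 and 126, and Cd36, a scavenger receptor, at 13.9 and 8.84 against 59 and 19.4. Cd14, the co-receptor for lipopolysaccharide, stood at 341 and 259 CPM against 224 and 159, log2 ratios of 0.61 and 0.71. Of 15 tested genes of adhesion and matrix 0 were higher and 1 lower (Itgax). Thbs1, which encodes thrombospondin 1, stood at 1453 and 1259 CPM against 787 and 621 (0.89 and 1.02), and Fn1, fibronectin, at 1327 and 1178 against 682 and 673 (0.96 and 0.81). Both fell just short of 2-fold in 1 or both libraries, and Fn1 was at 1893 and 1903 CPM in Transient Macrophages.

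Lists of metabolic and response genes held few genes that passed 2-fold. Of 18 tested interferon-stimulated genes 0 were higher and 0 lower, with a median of -0.39; Ifitm3, an antiviral membrane protein, stood at 2781 and 4059 CPM against 3825 and 4874, and Isg15 at 75.1 and 132 against 125 and 235. Of 16 tested genes of glycolysis 0 passed (median 0.12), with Gapdh at 1404 and 1454 CPM against 1224 and 1393. Of 14 tested genes induced by tissue dissociation 0 passed (median 0.00), with the immediate early gene Fos at 2394 and 1538 CPM against 2191 and 1235. Of 18 tested lysosomal genes 0 were higher and 1 lower (Trem2), with a median of -0.23. Of 13 genes of oxidative defence and iron 1 was higher, the iron exporter Slc40a1, at 27 and 10.7 CPM against 5.48 and 2.25, and it was not called without the cells with Retnlg or Ly6g. Complement genes had 0 of 10 higher and 2 lower (C1qb and C1qc), and without those cells 4 lower (C1qa, C1qb, C1qc and C3ar1). C3, the central component of complement, stood at 294 and 385 CPM against 155 and 216 (0.92 and 0.83).

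**Figure D5:**
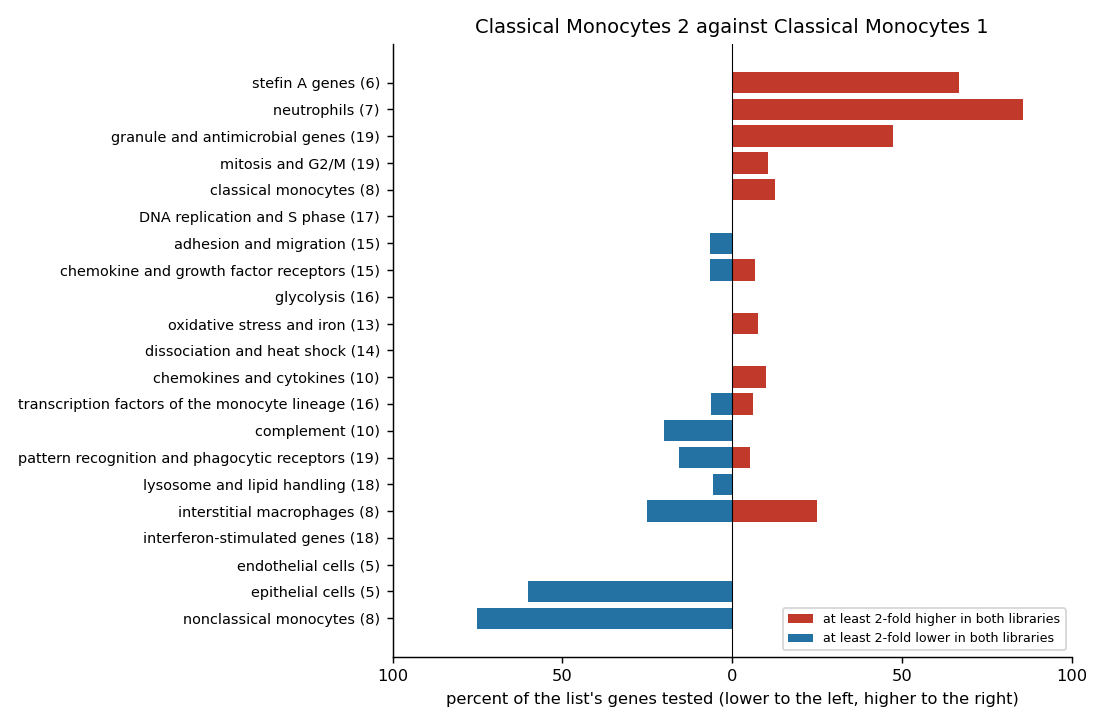
Percent of the tested genes of each list that were at least 2-fold higher or lower in Classical Monocytes 2 than in Classical Monocytes 1 in both libraries, for lists with at least 5 tested genes, with the number tested in parentheses. Of the genes tested, 6 of 7 neutrophil markers, 4 of 6 stefins and 9 of 19 granule genes were higher, and 6 of 8 nonclassical markers were lower. Some genes are on more than 1 list, among them S100a8 and S100a9.

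Transcripts of division genes were present in the class. Of 19 tested genes of mitosis and G2/M, 2 were higher than in Classical Monocytes 1 and 0 lower, with a median log2 ratio of 0.75. Mki67, which encodes the proliferation antigen Ki-67, stood at 84.8 and 135 CPM against 34 and 64.9, a log2 ratio of 1.31 and 1.05. Cenpe, a motor protein of the kinetochore, stood at 23.6 and 42.9 CPM against 8.7 and 17 (1.40 and 1.32). Summed, the list stood at 567 CPM in the female and 1074 in the male library, against 333 and 592 in Classical Monocytes 1 and 672 and 1042 in Transient Macrophages. Without the cells with Retnlg or Ly6g, Cenpe and Kif11 were the 2 higher, while Mki67, at 95 and 130 CPM against 34.1 and 64.9, had a log2 ratio of 1.47 in the female library and fell just under 2-fold in the male library. Of 17 tested genes of DNA replication 0 were higher and 0 lower (median 0.35).

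After thinning, 24.1% (95% interval 19.1 to 29.6) of female and 22.7% (18.3 to 27.6) of male cells of the class had a UMI of a gene of mitosis and G2/M, against 13.8% (11 to 16.9) and 14.3% (11.2 to 17.9) of Classical Monocytes 1. B Cells, with the summed list at 1275 and 995 CPM, had 34.6% and 30.4%. Unthinned, the shares were 53.3% and 46.3% against 40.7% and 37.1%. For genes of DNA replication they were 31.8% and 31.6% against 32.6% and 33.8%, and unthinned 85.8% and 77.3% against 83.4% and 80.1%. The mitotic share was thus higher than in Classical Monocytes 1 in both libraries. The replication share had no such order across the settings tried: it was 19.7% and 21.5% against 16.8% and 19.5% at 1000 UMIs, and 58.1% and 47.4% against 52% and 53% at 4000. At a threshold of 1 UMI in a list of this length a share depends on the depth chosen, and no cell is called cycling from it.

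A small group of cells carried transcripts of Elane, a gene of progenitors. Elane, which encodes the elastase made at the promyelocyte stage, had a UMI in 35 female cells (12.8%) and 43 male cells (12.8%). It stood at 61.7 CPM (217 UMIs) and 43.4 CPM (167 UMIs) in the class against 7.9 and 30.2 in Classical Monocytes 1 and 0 and 0 in Neutrophils. The log2 ratios were 2.90 and 0.52, so it was not called. Prtn3, a related protease, stood at 115 and 102 CPM against 61.4 and 123, and Mpo at 6.83 and 2.08. The list of precursor markers had 3 tested genes, of which 0 passed. Its members Mpo, Ctsg, Ms4a3, Kit and Flt3 had too few UMIs to be tested. Cd34, a surface antigen of progenitors, lay the other way, at 21.6 and 14.3 CPM against 42.4 and 40.8. Without the cells with Retnlg or Ly6g it was lower, at 19.2 and 13.8 CPM (log2 ratio -1.12 and -1.53), and 0 of the 3 were higher.

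The cells with at least 2 Elane UMIs, a threshold chosen after seeing the values, were set beside the others, leaving out cells with Retnlg or Ly6g. They numbered 23 of 239 female and 18 of 314 male cells, of which 11 and 10 lay within 2-fold of the threshold, and Scrublet marked 0 of them. Their median depth was 18202 and 19573 UMIs against 10806 and 9991. Mki67 stood at 297 and 516 CPM in them against 60 and 86.4 in the others, and Mcm6, a part of the replication helicase, at 82.3 and 94.8 against 5.53 and 8.17. Prtn3 stood at 608 and 505 CPM against 52.9 and 57.5. Ly6c2 stood at 2263 and 2386 CPM against 1131 and 1586, while Mmp8 stood at 254 and 318 against 728 and 932 and Chil3 at 599 and 917 against 1858 and 1800. These few deep cells thus combined Elane, by which they were chosen, and Prtn3 with division genes, high Ly6c2 and less Mmp8 and Chil3. They gave 144 genes higher and 220 lower of 5629 compared. They were grouped by one of these genes, so the counts are a description.

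S100a9 also divided the class. With the same cells left out, 137 female and 130 male cells had at least 0.2% of their UMIs from S100a9 and 102 and 184 had less, a threshold again chosen after seeing the values, with 28 and 22 cells of the former and 20 and 25 of the latter within 2-fold of it. S100a8 stood at 30492 and 32788 CPM in the former and 13207 and 13400 in the latter, Stfa1 at 12733 and 13486 against 6730 and 6707, and Stfa2l1 at 1642 and 1686 against 434 and 449. Monocyte markers did not follow: Ly6c2 stood at 1332 and 1734 CPM against 1246 and 1612, Vcan at 792 and 877 against 829 and 883, and Ccr2 at 853 and 943 against 1112 and 1204. Apoe was lower with high S100a9, at 1456 and 1558 CPM against 3033 and 3284, as was Lgmn, a lysosomal protease, at 38.3 and 33 against 85.5 and 98.6. In all, 17 genes were at least 2-fold higher, S100a9 itself included, and 4 lower in both libraries. Among the higher ones were the replication genes Rrm1 (38.3 and 46.1 CPM against 6.84 and 11.4), Dut (30 and 46.8 against 10.3 and 15.5) and Mcm5 (33.9 and 39.3 against 12 and 16), and Cldn5, a gene of endothelial cells (81.1 and 29.3 against 5.13 and 11.9). Scrublet marked 15 of the 137 and 1 of the 130 cells with high S100a9, and 4 of the 102 and 0 of the 184 with less. Their part in these values was not tested. Median depth was 12500 and 11514.5 UMIs against 10485 and 9806. Even the cells with little S100a9 thus held S100a8 and Stfa1 well above the levels of Classical Monocytes 1.

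Chil3 did not divide the class in the same way. Cells with at least 5 Chil3 UMIs (102 of 239 and 138 of 314) differed from the others by 2-fold in both libraries in 1 gene upward, which was Chil3 itself, and 1 downward, the histone gene Hist1h2ab at 15.6 and 33 CPM against 37 and 115. S100a8 stood at 25252 and 23905 CPM in them against 22601 and 20984, and Mmp8 at 735 and 901 against 604 and 848. Among all genes with enough counts after thinning, variance over mean across cells was highest for S100a9 (35.8 and 43.0), S100a8 (24.8 and 24.3) and Retnlg (16.3 and 21.4). Chil3 stood at 11.4 and 11.7. This ratio rises with the level of a gene, so its order is not one of relative spread. The mean thinned counts were 46.1 and 45.5 for S100a8, 1.18 and 0.537 for Retnlg and 3.27 and 3.94 for Chil3. The median over 2428 genes was 1.04 and 1.05.

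The 33 female and 17 male cells with at least 3 Retnlg UMIs were unlike the rest in more than neutrophil genes. Ly6c2 stood at 234 and 1023 CPM in them against 1301 and 1674 in the other cells of the class, Ccr2 at 467 and 522 against 955 and 1086, and Vcan at 109 and 492 against 815 and 877. C1qa, a macrophage gene, stood at 119 and 332 CPM against 3.01 and 1.39. Ngp stood at 98 and 252 CPM against 3.01 and 1.66. Few cells held these UMIs. Over the whole class, 1 female cell held 45% and 2 male cells held 83.3% of the Ngp UMIs. C1qb, another chain of C1q, had a UMI in 3.65% of female and 3.58% of male cells of the class. The pooled levels of C1qa and Ngp therefore do not describe each of the cells with Retnlg. S100a8 was not higher in both, at 18432 and 28532 CPM against 23814 and 22260. Their part in the results of the whole class is given above by the values with and without them.

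No gene was particular to the class by the 2-fold rule: of 10480 genes compared with every one of the 8 other immune classes, 0 were at least 2-fold higher than in all of them in both libraries (0 percent). The gene that came closest was Vcan, whose lowest log2 ratio over all classes and both libraries was 0.82, next to Classical Monocytes 1 in the male library. Among genes with at least 100 UMIs of the class in each library, C1galt1c1, a chaperone of protein glycosylation, followed with 0.59, at 108 and 134 CPM against 71.7 and 77.4 in Classical Monocytes 1. F5, which encodes clotting factor V, was among the 10 closest, at 104 and 129 CPM against 47.7 and 63.3, and it passed 2-fold against Classical Monocytes 1 (log2 ratio 1.12 and 1.02). Plcb1, AI839979, Elane, C3, Cry1, Svip and Dna2 completed the 10, and Inpp5j, with 89 and 115 UMIs, had 0.60. The class was thus set off from Classical Monocytes 1 by one set of genes and from neutrophils by another.

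The list of alveolar macrophages and their precursors had 3 tested genes, of which 1 was higher than in Classical Monocytes 1, again Chil3. Its median log2 ratio was 2.85, which with 3 tested genes is the value of 1 gene, and that gene was not called. The log2 ratio of its summed UMIs, those of Chil3 included, was 2.43 and 2.71. Neither value speaks for the list as a whole. Markers of the cell types that follow were low in the class. The 7 T cell markers summed to 12.8 and 2.86 CPM, with Cd3e at 0, and the natural killer list to 54.3 and 4.94 CPM, beside 9131 and 10378 in NK Cells. The B cell list summed to 21.3 and 35.6 CPM (5059 and 3207 in B Cells), with Pax5 at 0. The list of basophils and mast cells summed to 4.84 and 6.24 CPM, with Mcpt8, Cpa3 and Ms4a2 at 0. Red cell genes summed to 14.2 and 5.46 CPM, against 58.2 and 972 in Classical Monocytes 1, where 1 cell held 226 of the 255 female and another 2484 of the 2490 male UMIs of Hbb-bs. The lower calls of Hbb-bs and Hba-a1 therefore rest on 1 cell of the other class in each library. Epithelial markers summed to 291 and 430 CPM against 662 and 492, most of it Sftpc (250 and 390 against 560 and 380), and 3 of 5 tested ones were lower, namely Krt8, Krt18 and Ager. Mesenchymal markers summed to 95.6 CPM in the female and 9.62 in the male library. Endothelial markers summed to 179 and 89 CPM against 276 and 152 in Classical Monocytes 1, with 0 of 5 tested genes called, and the highest of them was Cldn5 at 62 and 21.9 CPM.

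Between the sexes, 148 of 8107 genes tested were at least 2-fold higher in the female library (1.83%) and 70 in the male library (0.863%), with 1 library of each sex and no test. Xist, the RNA of the inactive X chromosome, stood at 404 and 0 CPM, and the Y-linked Eif2s3y at 0 and 63.5, which matched the labels. Genes of mitosis and G2/M were higher in the male library in 10 of 20 cases, with a median log2 ratio of female over male of -0.99. Cdk1, the kinase of mitosis, stood at 10.5 CPM in the female and 37.5 in the male library, and the histone genes Hist1h1b and Hist1h2ae at 102 and 377 and at 37.6 and 146. The thinned share of cells with such a gene was nevertheless 24.1% and 22.7%. Mesenchymal markers were higher in the female library in 4 of 4 cases, with a median of 3.05, among them Mgp at 39.8 and 3.12 CPM. Mfap4, which is not on that list and was named for its ratio between the sexes, stood at 28.5 and 1.82 CPM. Of 5 tested endothelial markers 2 were higher in the female library, with a median of 0.85. Without the cells that Scrublet marks, 15 genes were higher in the female library in place of 148. That step left out 44 cells of the class in the female library and 1 in the male library. Of the genes higher than in Classical Monocytes 1, S100a8, Stfa1, Mmp8 and Chil3 did not differ by 2-fold between the libraries. Others did, and were higher in the female library: Retnlg (log2 ratio 1.10), Stfa2 (1.36), Cstdc5 (1.48), Csta3 (1.28), Mmp9 (1.35), Cxcl2 (1.78) and Mrc1 (1.13), with Slc40a1 and Asprv1 past 2-fold too. Without the cells with Retnlg or Ly6g, which were 12.8% of the female and 6.27% of the male cells, the log2 ratio of Retnlg was 0.15, that of Mrc1 0.02, that of Slc40a1 0.31 and that of Asprv1 0.96. It stayed past 2-fold for Stfa2 (1.22), Cstdc5 (1.16), Csta3 (1.10), Mmp9 (1.04) and Cxcl2 (1.21).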

How the data were processed

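The authors deposited whole UMI counts for each gene and barcode, made with Cell Ranger 6.0.0 per the file headers. The submitters' processing notes also name Seurat 4.1.1 and the build mm10. Chemistry, perfusion and sorting come from the labels' protocols, and the pools of 3 mice from the series' design text. Cell classes are those of the deposited annotation, and whether the authors removed doublets is not given in the sources used here. The 2 day 1 libraries held 160805823 and 163649658 UMIs.

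UMIs were summed per class and library and given as CPM. Log2 ratios used a prior count of 2, and a gene was called at 2-fold or more in the same direction in both libraries with 50 or more UMIs summed over both classes in each. Intervals are exact 95% Poisson or binomial intervals, and 0 was read against a floor of 3 UMIs or cells. Doublets were scored with Scrublet in scanpy 1.11.5 and kept in the values given. Scaling by edgeR 4.0.16 was tried as an alternative, with other filters, prior counts, folds and cell sets. Python 3.11.15, numpy 2.4.6, scipy 1.17.1, pandas 2.3.3 and R 4.3.3 were used. Gene coordinates are from GENCODE M21 (GRCm38). The comparison was tested on simulated data with 4-fold changes. That does not show how it acts near 2-fold or where few cells hold the UMIs of a gene.

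The members, gene lists and rules were chosen with earlier results of these data known. The genes named were up to 4 per list with at least 100 CPM in the class and up to 4 per list past 2-fold, the 12 highest and 12 lowest against Classical Monocytes 1 with at least 100 UMIs in the higher class, the 10 highest against every other class and 5 per sex. Mitochondrial, ribosomal protein, haemoglobin, immunoglobulin and T cell receptor genes, and genes named only by Gm or Rik numbers, were left out of the rankings not made by list. Other list members (among them F13a1, Csf1r, Csf3r, Ly6g, Camp, Lcn2, Slpi, Irf8 and Spn), the genes named in divisions of the class, and those divisions, were chosen after their values were seen. Each sex had 1 library, so no p-value was computed. Mx1, Clec6a, Clec7a, BC100530 and BC117090 were not analysed here. The values of 1 list member are not reported here.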

Additional observations from a re-analysis of the deposited data

Results flagged for a closer look

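A pair of genes of cytotoxic lymphocytes lay in opposite directions in the 2 libraries. Ccl5, a chemokine of natural killer and T cells, had a log2 ratio of Classical Monocytes 2 over Classical Monocytes 1 of 5.01 in the female and -5.07 in the male library. Gzma, the protease granzyme A, had log2 ratios of 4.40 and -7.23. The difference between the libraries was not tested. In the female library 1 cell of Classical Monocytes 2 held 210 of the 210 Ccl5 UMIs, and 1 cell held 120 of the 125 Gzma UMIs (96%). In the male library the cell of Classical Monocytes 1 with the most held 117 of 202 Ccl5 UMIs (57.9%) and 276 of 524 Gzma UMIs (52.7%).

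Barcodes that the authors left without a class in part held Ly6c2 and Ccr2, which mark classical monocytes, together with S100a8. Among those that held 1000 genes or more and no more than 10% of UMIs from mitochondria, 138 of 2675 in the female library (5.16%) and 203 of 2339 in the male library (8.68%) held UMIs of Ly6c2, Ccr2 and S100a8 together. The share was 88.3% and 94.6% in Classical Monocytes 2, 58.8% and 63.8% in Classical Monocytes 1, 11.3% and 14.6% in Transient Macrophages, 10.2% and 8.25% in NK Cells, 8.82% and 5.04% in Interstitial Macrophages 1, 5.37% and 3.95% in Alveolar Macrophages and 0.0485% and 0.119% in gCap, a class of capillary endothelial cells. A count of 0 allows up to 0.112% and 0.128% of such barcodes. The share among barcodes without a class was thus below that of Transient Macrophages in both libraries, and the 3 transcripts do not tell which class such a barcode is nearer to. These barcodes are in none of the comparisons.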

How the results depend on the processing

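In all, 705 alternative values were computed over 82 results. Of the 53 genes higher and 124 lower than in Classical Monocytes 1, 42 and 90 were called again without the cells that Scrublet marks, 36 and 80 when the same share of high Scrublet scores was left out of each library, and 53 and 107 with edgeR's scaling. The count of higher genes was 82 at a minimum of 20 UMIs, 165 with no minimum, 182 at 1.5-fold and 22 at 4-fold, and the count of lower genes 361, 332 and 16 for the last 3 of these. With 1 library left out, 120 to 158 were higher and 243 to 294 lower, since a gene then had to pass in 1 library only. Marker list genes higher numbered 9, and 5 without the cells with Retnlg or Ly6g. State list genes higher numbered 20 and lower 10, and with 1 library left out 26 to 35 and 15 to 16.

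The count of 0 genes higher than in every other class became 1 (Elane) with equal shares of high Scrublet scores left out, 2 (Hal and Gpld1) at 20 UMIs and with no minimum, 4 at 1.5-fold and 3 to 4 with 1 library left out. Genes higher in the female library numbered 148, and 15 without the cells that Scrublet marks, 42 with equal shares left out and 67 without the cells with Retnlg or Ly6g; at 20 UMIs, no minimum, 1.5-fold and 4-fold they were 338, 1252, 480 and 29. Genes higher in the male library numbered 70, and 19 with equal shares left out, then 138, 344, 230 and 7. The log2 ratio of Ccl5 of female over male turned from 5.51 to -1.20 without the cells that Scrublet marks and -1.26 with equal shares left out. The share of all cells with a class, 2.37% and 2.97%, was 1.83% and 2.32% of every barcode.

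The share of cells with a UMI of mitosis and G2/M moved with the depth thinned to. In the female library it was 16.4% at 1000 UMIs, 31.5% at 4000 and 12.8% at a threshold of 2 UMIs, and in the male library 31.2% at 4000 and 14.6% at 2 UMIs. For DNA replication it was 19.7%, 58.1% and 8.76% in the female and 21.5%, 47.4% and 8.96% in the male library. A second draw of 2000 UMIs gave 25.9% and 23.6% for mitosis, and 33.9% and 30.7% for replication. The alternatives with equal shares of high Scrublet scores left out and without the cells with Retnlg or Ly6g, and the second draw, were chosen after seeing the data. No test was run, paired or not. The ratios between classes were taken within each library, which pairs the classes by library, and were given for both. Between the sexes there was 1 library each, with no replicate numbers to pair.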

Other observations

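The genes that follow were on the lists and were not described above. Among chemokines, Ccl6 stood at 1034 CPM in the female and 974 CPM in the male library of Classical Monocytes 2 against 808 and 735 in Classical Monocytes 1, and Ccl9 at 218 and 195 against 277 and 238. Among calcium-binding S100 genes, S100a11 stood at 4008 and 3822 CPM against 2698 and 2477, while S100a4 lay the other way, at 772 and 691 against 1696 and 1242 (log2 ratio -1.14 and -0.85). Neither reached 2-fold in both libraries, so S100a8 and S100a9 stood apart from these S100 genes. Cst3, which encodes cystatin C, another inhibitor of cysteine proteases, stood at 1425 and 1533 CPM against 2840 and 2462, in the opposite direction to the stefin A genes. The factors Klf2, at 665 and 512 CPM against 1056 and 609, and Klf4, at 191 and 178 against 347 and 180, differed from Classical Monocytes 1 more in the female than in the male library. The difference between libraries was not tested.

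Further genes among the 12 highest were Asprv1, an aspartic protease, at 91.6 and 36.9 CPM against 1.29 and 1.43, and Olfm4, olfactomedin 4, at 67.1 and 34.1 against 1.61 and 1.63. Without the cells with Retnlg or Ly6g they stood at 18.2 and 9.04 CPM and at 23.9 and 13.8. Saa3, an acute phase gene, had 319 UMIs in the female and 204 in the male library of the class. Of 2 tested markers of plasmacytoid dendritic cells and 3 genes of the fetal list, 0 were called, and among the markers of basophils and mast cells, T cells and platelets 0 could be tested.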
